A study of Mus musculus with 9 samples.

Results

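Matrix metalloproteinases are zinc-dependent proteases that cut the proteins of the extracellular matrix, and TIMP1 is an inhibitor that binds their catalytic site. The transcripts of 9 metalloproteinase genes, Mmp2, Mmp3, Mmp7, Mmp9, Mmp10, Mmp11, Mmp12, Mmp13 and Mmp14, and of Timp1 were followed across normal, dysplastic and cancerous submandibular salivary glands of the mouse. They were found by their symbols in the annotation of the array and make up 10 of the 19057 genes with a probe of their own, measured by 16 probes. Of the 10, 9 were above background on at least 3 arrays and entered the tests, among 13245 genes in all, and Mmp7 did not.

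The study profiled total RNA of submandibular glands on 9 Illumina BeadChip arrays. There were 3 samples labelled normal with no tumour stage, 3 of dysplasia and 3 of adenocarcinoma. All 9 came from mice of the genotype Smgb-Tag, including the normal glands, so no group stood for a gland without the transgene. The transgene's name joins Smgb, a gene of the developing salivary gland, with the T antigen of the SV40 virus, an oncoprotein that inactivates the tumour suppressors p53 and Rb. The labels used here do not state age, sex or whether a group's samples came from separate animals, so a p-value speaks only for the variation among these arrays, part of which may be technical. Values are log2 of the deposited fluorescence intensity, and background lay at 6.29 on that scale.

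Most metalloproteinases are made as inactive proenzymes. Their activity is set by transcription, by removal of the propeptide, often by plasmin or by another metalloproteinase, and by TIMPs. In normal epithelia most are sparsely transcribed, and in carcinomas fibroblasts, macrophages and neutrophils supply much of the enzyme, while some tumour cells make it themselves. In bulk tissue, fewer cells of a type and less RNA per cell cannot be told apart.

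The metalloproteinase genes of this set that share a chromosomal cluster also shared promoter letters, and those promoters are shown because the results on stromelysins, collagenase and metalloelastase turn on these genes. In the RefSeq annotation of GRCm38.p6, 10 metalloproteinase genes lie together on chromosome 9, among them 5 of the set, Mmp13, Mmp12, Mmp3, Mmp10 and Mmp7. Mmp11 lies on chromosome 10, Mmp14 on 14, Mmp2 on 8, Mmp9 on 2 and Timp1 on X. Promoter windows, from 250 bases before to 50 after an annotated start, were matched by symbol for 8 of the 10 genes, in 10 windows. The 7 letters TGAGTCA, or TGACTCA on the other strand, are the recognition element of AP-1, the factor built from Fos and Jun proteins. They stood in at least 1 window of 5 of the 8 genes, and in 5.20% of all 32851 windows. The first is a count of genes and the second of windows, so the measures are unlike. Of the 10 metalloproteinase genes of the cluster 7 had the letters, and Mmp8, Mmp27 and Mmp20 did not. TATAAA on the gene's own strand stood in 8.32% of all windows, and both stood together in 0.624%. The 100 bases before the start follow for those 5 genes and for Mmp14 and Timp1, which had neither, 5′ to 3′, with AP-1 letters and TATAAA in capitals. All 7 lie on the plus strand of GRCm38.p6.
Mmp13, chr9:7272414-7272513: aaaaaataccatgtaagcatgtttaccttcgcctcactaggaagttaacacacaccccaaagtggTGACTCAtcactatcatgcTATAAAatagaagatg
Mmp12, chr9:7347274-7347373: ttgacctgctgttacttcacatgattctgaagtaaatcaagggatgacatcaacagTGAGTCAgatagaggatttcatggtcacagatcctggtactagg
Mmp3, chr9:7445722-7445821: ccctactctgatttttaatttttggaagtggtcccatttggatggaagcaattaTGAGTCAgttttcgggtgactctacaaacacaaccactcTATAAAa
Mmp10, chr9:7502242-7502341: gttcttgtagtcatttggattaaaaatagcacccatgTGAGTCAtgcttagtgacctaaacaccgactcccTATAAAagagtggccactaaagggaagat
Mmp7, chr9:7691990-7692089: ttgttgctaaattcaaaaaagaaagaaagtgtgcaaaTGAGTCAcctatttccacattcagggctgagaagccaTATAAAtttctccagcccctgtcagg
Mmp14, chr14:54431498-54431597: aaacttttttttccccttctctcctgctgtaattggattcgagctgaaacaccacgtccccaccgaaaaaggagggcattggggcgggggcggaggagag
Timp1, chrX:20870066-20870165: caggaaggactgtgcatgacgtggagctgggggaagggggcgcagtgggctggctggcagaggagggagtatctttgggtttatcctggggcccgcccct

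The AP-1 letters began 35 bases before the start in Mmp13, 44 in Mmp12, 46 in Mmp3, and 63 in both Mmp10 and Mmp7. TATAAA began 16 bases before the start in Mmp13, 7 in Mmp3, 29 in Mmp10 and 26 in Mmp7, and in Mmp12 at base 5 after it, outside the stretch shown. Mmp12 and Mmp7 each had another window, from another annotated start, that held neither. Mmp11 lacked both. A match of letters is a description and does not show binding.

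The arrays of a group were not equally alike, and this bears on every value that follows. Over the 13245 genes, normal 1 and normal 2 correlated at 0.992, while normal 3 correlated with them at 0.875 and 0.883, and at 0.971 with dysplasia 2 and 0.973 with adenocarcinoma 2. Acinar secretory markers, which define the gland, had a median of 15.38, 15.14 and 13.73 on the normal arrays. It was 10.13, 11.99 and 12.06 in dysplasia and 14.57, 11.89 and 11.09 in adenocarcinoma, so normal 3 lay above every dysplasia array. All 7 acinar markers that were tested stood above background on every array. By the correlations normal 3 stands apart from the other arrays with its label, and whether that label is right is in doubt. Normal 3 was kept as given. The normal arrays also differed in other tissue. Their medians were 12.79, 11.54 and 7.03 for adipocyte markers and 9.10, 9.07 and 7.15 for T cell markers. For skeletal muscle markers they were 9.33, 9.11 and 7.37. On the other 6 arrays the adipocyte median ran from 6.17 to 9.98. Results without normal 3 are set against normal 1 and normal 2 alone, and the part of these tissues was not tested. Adenocarcinoma 1 correlated with normal 1 and normal 2 at 0.91 and 0.92, above normal 3, and with adenocarcinoma 2 and adenocarcinoma 3 at 0.953 and 0.921. Because of the doubt over normal 3, results are given with and without it, and with dysplasia 3 also left out where that array decides a value. Both arrays were singled out by their values, so adjusted p-values without them describe the arrays kept and are not independent tests. Where normal 3 was the highest normal array, leaving it out raised the difference by construction. Leaving out normal 1 or normal 2 instead called 0 genes in each comparison.

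With all 9 arrays, limma's moderated test called none of 13245 genes at an adjusted p under 0.05 in any of the 3 comparisons, so none of the 9 tested genes of this set was called, 0.0% in the set as over all genes. At an unadjusted p under 0.05 there were 2884 genes for dysplasia against normal, 2080 for adenocarcinoma against normal and 565 for adenocarcinoma against dysplasia. Without normal 3 the adjusted test called 3038 genes for dysplasia against normal and 2003 for adenocarcinoma against normal, and 0 of 13245 for adenocarcinoma against dysplasia, where the unadjusted count was 897.

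The metalloproteinases fell into distinct patterns. Mmp12 and Mmp13 were higher on every dysplasia and adenocarcinoma array than on any normal array. Timp1 was so in adenocarcinoma alone, and Mmp11 stood near background on normal 1 and normal 2 but not on normal 3. Mmp3, Mmp9, Mmp10 and Mmp13 had their highest value on dysplasia 3, and Mmp2, Mmp3, Mmp9 and Mmp14 had their lowest on dysplasia 1. The plot of each gene's values by array shows these patterns.

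**Figure D1:**
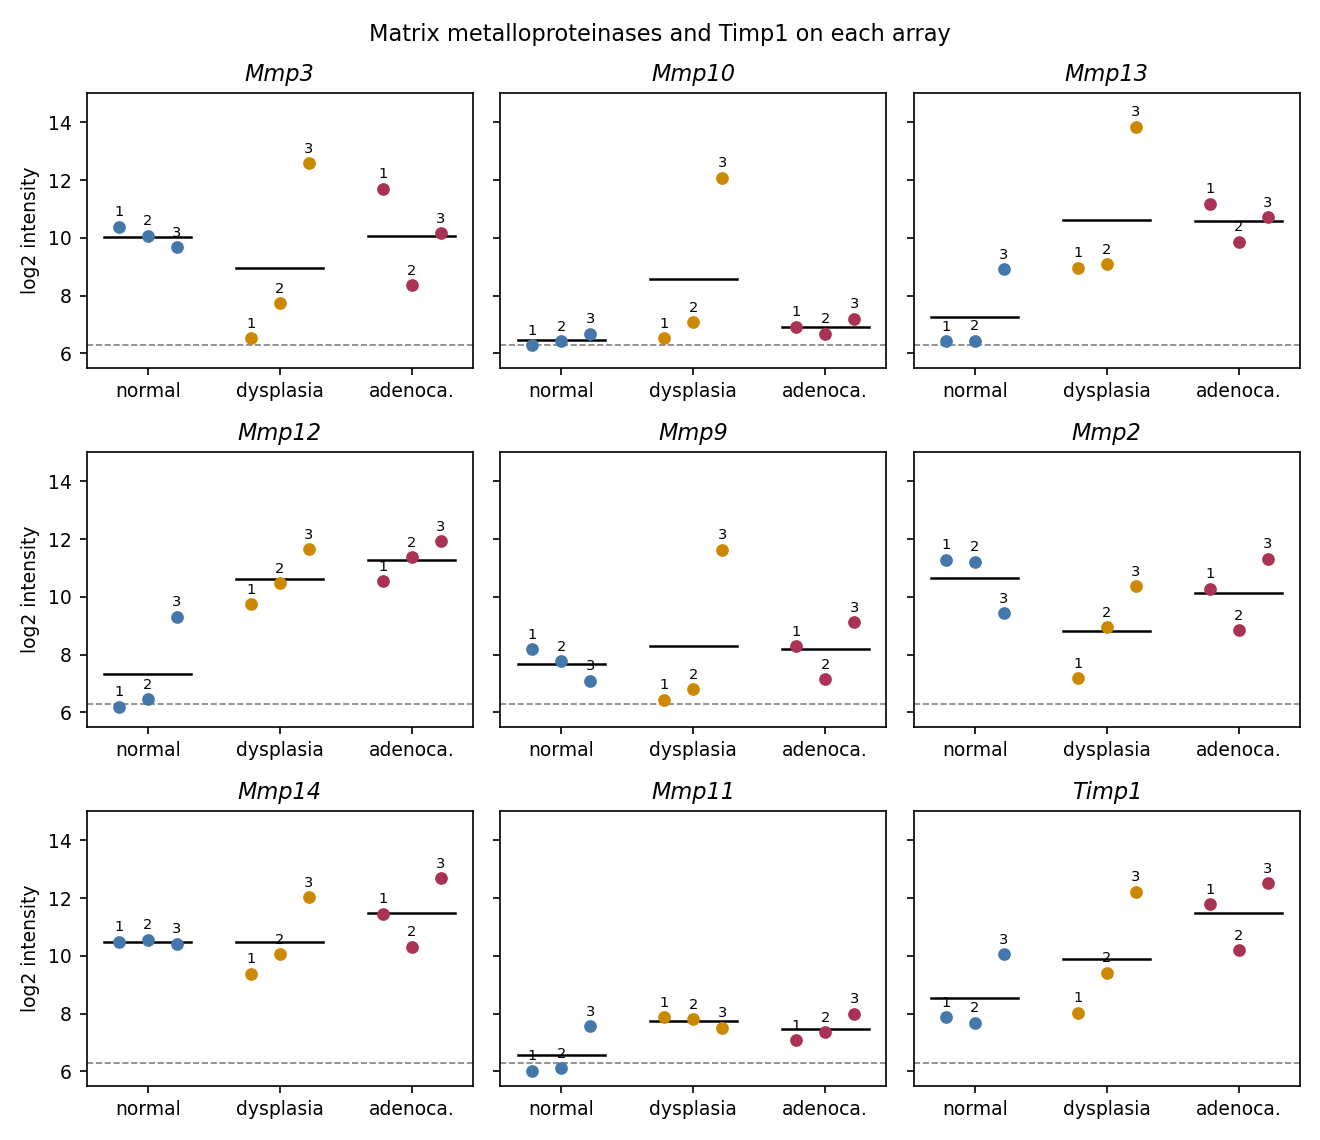
Log2 intensity (vertical axis) of the tested probe of the 9 tested genes on each of the 9 arrays, in 3 groups, with adenocarcinoma shortened to adenoca. Numbers are the replicate numbers, bars are group means and the dashed line is background at 6.29. Mmp12 separates the normal arrays from the other 6, while Mmp10 stands at 12.08 on dysplasia 3 and at 7.19 or less elsewhere.

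Mmp12, the macrophage metalloelastase that cleaves elastin, had a log2 intensity of 6.19, 6.46 and 9.30 on the normal arrays. It read 9.74, 10.48 and 11.64 in dysplasia and 10.53, 11.38 and 11.93 in adenocarcinoma. Normal 3 was closer to the dysplasia arrays than to the other normal arrays, yet every dysplasia and adenocarcinoma array lay above every normal one. The mean was 7.32 ± 1.73 (SD, n = 3) in normal glands, 10.62 ± 0.96 in dysplasia and 11.28 ± 0.71 in adenocarcinoma. The difference from normal was 3.30 ± 0.87 (SE) on the log2 scale in dysplasia, 9.87-fold, with an adjusted p of 0.158 in limma. In adenocarcinoma it was 3.96 ± 0.87, 15.6-fold, with an adjusted p of 0.212. Without normal 3 these became 4.30 ± 0.59, 19.7-fold, with a limma adjusted p of 0.0044, and 4.96 ± 0.59, 31.1-fold, with an adjusted p of 0.0042. Mmp12 rose in both comparisons on those 8 arrays, of which normal 1 was not above background, while on 9 arrays it did not pass the test. Adenocarcinoma and dysplasia differed by 0.66 ± 0.87, less than the spread within the groups.

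Macrophages are a known source of Mmp12, and their markers were read beside it. The median over the 14 tested macrophage markers was 9.72, 9.79 and 9.0 on the normal arrays, 8.21, 8.89 and 9.93 in dysplasia and 10.48, 9.0 and 10.23 in adenocarcinoma. For dysplasia against normal, 4 of the 14 had a difference above 0, with a median of -0.41, and for adenocarcinoma 12 of 14, with a median of 0.58. Adgre1, a surface protein of mouse macrophages, read 9.79, 10.001 and 9.66 in normal gland, 8.92, 9.88 and 10.31 in dysplasia and 11.55, 10.35 and 11.47 in adenocarcinoma, so that dysplasia overlapped normal and adenocarcinoma did not. Itgam, an integrin chain of myeloid cells, read 5.81, 5.98 and 6.13 in normal gland, where no array was above background. It read 5.94, 6.22 and 6.79 in dysplasia and 6.50, 6.35 and 6.78 in adenocarcinoma. In adenocarcinoma 4 of the 14 markers, Adgre1, Lyz2, Msr1 and Itgam, lay above all normal arrays, beside 10.2% of all genes. The part of macrophages in the Mmp12 values was not tested.

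Mmp13, collagenase 3, cuts fibrillar collagen and is the main interstitial collagenase of the mouse. It had a log2 intensity of 6.41, 6.43 and 8.92 on the normal arrays, 8.96, 9.09 and 13.85 in dysplasia, and 11.18, 9.86 and 10.72 in adenocarcinoma. Normal 3 reached nearly the level of dysplasia 1, from which it differed by less than the adenocarcinoma arrays did among themselves. The difference from normal was 3.38 ± 1.32 (SE) in dysplasia, with a limma adjusted p of 0.20, and 3.33 ± 1.32 in adenocarcinoma, with an adjusted p of 0.296. Leaving out normal 3 gave 4.21 ± 1.40 and 4.17 ± 1.40, with adjusted p-values of 0.070 and 0.091, short of the threshold. Leaving out dysplasia 3 instead lowered the dysplasia difference to 1.77 ± 0.79. With both arrays left out, Mmp13 rose in dysplasia by 2.60 ± 0.40, with a limma adjusted p of 0.0093. In adenocarcinoma the difference stayed at 4.17, now ± 0.37, with an adjusted p of 0.0026. Dysplasia 3 is in neither group of that comparison, so leaving it out changed only the estimate of the spread, which all groups share. Between adenocarcinoma and dysplasia the sign turned with dysplasia 3, from -0.05 ± 1.32 with it to 1.56 ± 0.79 without it.

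Mmp13 was measured by 3 probes that differed in brightness. A second probe read 6.07, 6.17 and 6.64 on the normal arrays, 6.44, 6.70 and 9.64 in dysplasia and 7.47, 6.86 and 7.20 in adenocarcinoma, with a correlation of 0.923 with the first over the 9 arrays. The remaining probe stayed close to background throughout and reached 6.82 at most, on dysplasia 3. On the second probe too the adenocarcinoma arrays lay above all normal arrays, but dysplasia 1 lay below normal 3. With the 3 probes averaged, the difference from normal was 1.60 in dysplasia and 1.41 in adenocarcinoma, 3.04-fold and 2.65-fold in place of 10.4-fold and 10.1-fold.

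The stromelysins Mmp3 and Mmp10 degrade proteoglycans, laminin and fibronectin and activate the proenzymes of other metalloproteinases. Mmp3 was well above background in normal gland, at 10.38, 10.07 and 9.67. In dysplasia it stood at 6.52, 7.74 and 12.59, a 67.1-fold range, and in adenocarcinoma it read 11.70, 8.36 and 10.15. Dysplasia 1 and dysplasia 2 lay below every normal array and dysplasia 3 above every one. The mean differences from normal were -1.09 ± 1.49 (SE) in dysplasia and 0.03 ± 1.49 in adenocarcinoma, with limma adjusted p-values of 0.692 and 0.995. Without dysplasia 3 the dysplasia difference was -2.91 ± 0.90, with an adjusted p of 0.222. The 3 probes of Mmp3 correlated at 0.966 to 0.991 with each other.

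Mmp10 gave 6.28, 6.41 and 6.67 in normal gland, 6.52, 7.08 and 12.08 in dysplasia and 6.91, 6.67 and 7.19 in adenocarcinoma. Outside dysplasia 3 it stayed within 0.91 of its lowest value, near background, and on dysplasia 3 it was 29.7-fold above the next array. The mean difference of 2.11 ± 1.26 between dysplasia and normal, with a limma adjusted p of 0.353, was 0.35 ± 0.25 without that array, and the difference between adenocarcinoma and dysplasia turned from -1.64 ± 1.26 to 0.12 ± 0.25. The adenocarcinoma arrays lay above the normal arrays by a margin that vanishes on rounding, since adenocarcinoma 2 and normal 3 both read 6.67. Mmp7, or matrilysin, a small epithelial metalloproteinase whose promoter carries the same letters, read 5.74 to 6.35 and exceeded background on adenocarcinoma 1 only. It was therefore neither tested nor given a fold change.

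**Figure D2:**
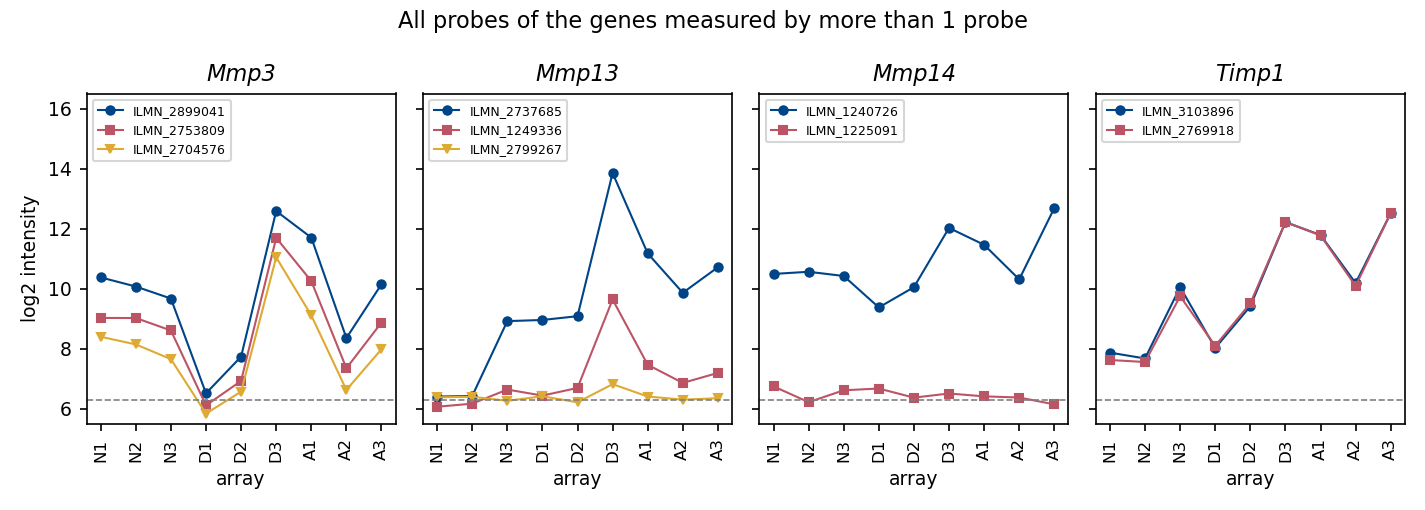
Log2 intensity (vertical axis) of every probe of the 4 genes measured by more than 1 probe, on the arrays (horizontal axis) N1 to N3 (normal), D1 to D3 (dysplasia) and A1 to A3 (adenocarcinoma), 1 line a probe, with background at 6.29 dashed. The probes of Mmp3 and of Timp1 run in parallel, while the second Mmp14 probe and 1 Mmp13 probe stay near background.

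The gelatinases Mmp2 and Mmp9 cut denatured collagen and type IV collagen of basement membranes. Mmp2, made mainly by fibroblasts, had a log2 intensity of 11.28, 11.21 and 9.43 in normal gland, 7.18, 8.94 and 10.37 in dysplasia and 10.28, 8.84 and 11.32 in adenocarcinoma. Dysplasia 1 was lowest, and normal 1 and adenocarcinoma 3 were alike at the top, so the groups overlapped. The difference was -1.81 ± 0.94 (SE) in dysplasia, with a limma adjusted p of 0.292, and -0.50 ± 0.94 in adenocarcinoma, with an adjusted p of 0.824. Without normal 3 and dysplasia 3 together it fell in dysplasia by 3.19 ± 0.88 on the log2 scale, with an adjusted p of 0.045. Fibroblast markers moved with it: their median over 11 tested genes was 10.21, 10.24 and 8.13 in normal gland, 6.75, 8.19 and 9.17 in dysplasia and 9.41, 7.82 and 10.11 in adenocarcinoma. In dysplasia 10 of the 11 had a difference below 0, with a median of -1.73. Their part in the Mmp2 values was not tested.

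Mmp9, the gelatinase of neutrophils, macrophages and osteoclasts, read 8.19, 7.76 and 7.10 in normal gland, 6.43, 6.81 and 11.63 in dysplasia and 8.29, 7.15 and 9.13 in adenocarcinoma. It was 5.67-fold higher on dysplasia 3 than on the next array, while dysplasia 1 and dysplasia 2 were below all normal arrays. The sign of the mean difference rested on that array: 0.61 ± 1.28 with a limma adjusted p of 0.809, and -1.06 ± 0.58 with an adjusted p of 0.317 without it. Between adenocarcinoma and dysplasia it turned likewise, from -0.10 ± 1.28 to 1.57 ± 0.58.

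The median of the 9 tested neutrophil markers was also highest on dysplasia 3, where 5 of the 9 had their highest value, while 3 were highest on normal 2 and 1 on adenocarcinoma 1. The median was 7.99 there and 6.33 to 6.81 on the other 8 arrays. S100a8 and S100a9, calcium-binding proteins of neutrophils and of inflamed epithelium, read 12.58 and 11.81 on dysplasia 3. On the other arrays S100a8 lay between 6.90 and 10.77 and S100a9 between 6.62 and 9.75. Cxcr2, a chemokine receptor of neutrophils, was at 7.75 on dysplasia 3 and at 6.67 or less elsewhere, whereas the granule proteins Mpo and Elane, made by neutrophil precursors, were at or close to background on all arrays. Camp, another granule protein, was between 6.13 and 6.79. Ltf, or lactoferrin, which glands secrete as well, was at 9.73 on dysplasia 3 and highest on adenocarcinoma 1, at 11.78. The part of these cells in the Mmp9, Mmp10, Mmp3 and Mmp13 values of dysplasia 3 was not tested.

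Mmp14, a membrane-anchored metalloproteinase, cuts collagen at the cell surface and activates the proenzyme of Mmp2. Its values in normal gland lay close together, at 10.49, 10.56 and 10.42. They spread to 9.38, 10.05 and 12.02 in dysplasia and to 11.46, 10.31 and 12.69 in adenocarcinoma. The arrays of both disease groups lay on either side of the normal ones. The mean differences were -0.01 ± 0.75 (SE) and 0.99 ± 0.75, with limma adjusted p-values of 0.996 and 0.526, and the first turned to 0.54 ± 0.77 when dysplasia 1 was left out. A second Mmp14 probe lay near background, at 6.15 to 6.75, and did not follow the first, with a correlation of -0.505. With both averaged the adenocarcinoma difference was 0.39 ± 0.37.

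Mmp11, or stromelysin 3, is made by stromal cells around carcinomas and is activated inside the cell by furin. It had a log2 intensity of 6.02, 6.11 and 7.57 in normal gland, 7.88, 7.81 and 7.50 in dysplasia, and 7.07, 7.35 and 7.99 in adenocarcinoma. Among the tested genes of the set it had the narrowest range, 3.92-fold, and the dysplasia arrays differed by less than they did for any other of these genes. Normal 1 and normal 2 were not above background. The differences of 1.16 ± 0.43 (SE) in dysplasia and 0.90 ± 0.43 in adenocarcinoma had limma adjusted p-values of 0.187 and 0.346. Without normal 3, Mmp11 rose in dysplasia at least 2.72-fold, with an adjusted p of 0.0077, and in adenocarcinoma at least 2.27-fold, with an adjusted p of 0.018, the bounds being taken against the background level.

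Timp1 had a log2 intensity of 7.87, 7.68 and 10.05 in normal gland, 8.03, 9.42 and 12.22 in dysplasia and 11.79, 10.19 and 12.52 in adenocarcinoma. All adenocarcinoma arrays lay above all normal ones, although adenocarcinoma 2 and normal 3 were close, and the dysplasia arrays ran from the normal to the adenocarcinoma level. The mean was 8.53 ± 1.32 (SD, n = 3) in normal gland, 9.89 ± 2.13 in dysplasia and 11.50 ± 1.19 in adenocarcinoma. The difference between adenocarcinoma and normal was 2.96 ± 1.14 (SE), 7.80-fold, with a limma adjusted p of 0.290, and between dysplasia and normal 1.35 ± 1.14, with an adjusted p of 0.510. Leaving out normal 3 gave 3.72 ± 1.19 in adenocarcinoma, 13.2-fold, with an adjusted p of 0.080. Leaving out dysplasia 3 lowered the dysplasia difference to 0.19 ± 0.94. With both left out, the adenocarcinoma difference of Timp1 stayed at 3.72, now ± 0.73, with an adjusted p of 0.021. Dysplasia 3 is in neither group of that comparison, so leaving it out changed only the estimate of the spread, which all groups share. Its 2 probes correlated at 0.998.

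**Figure D3:**
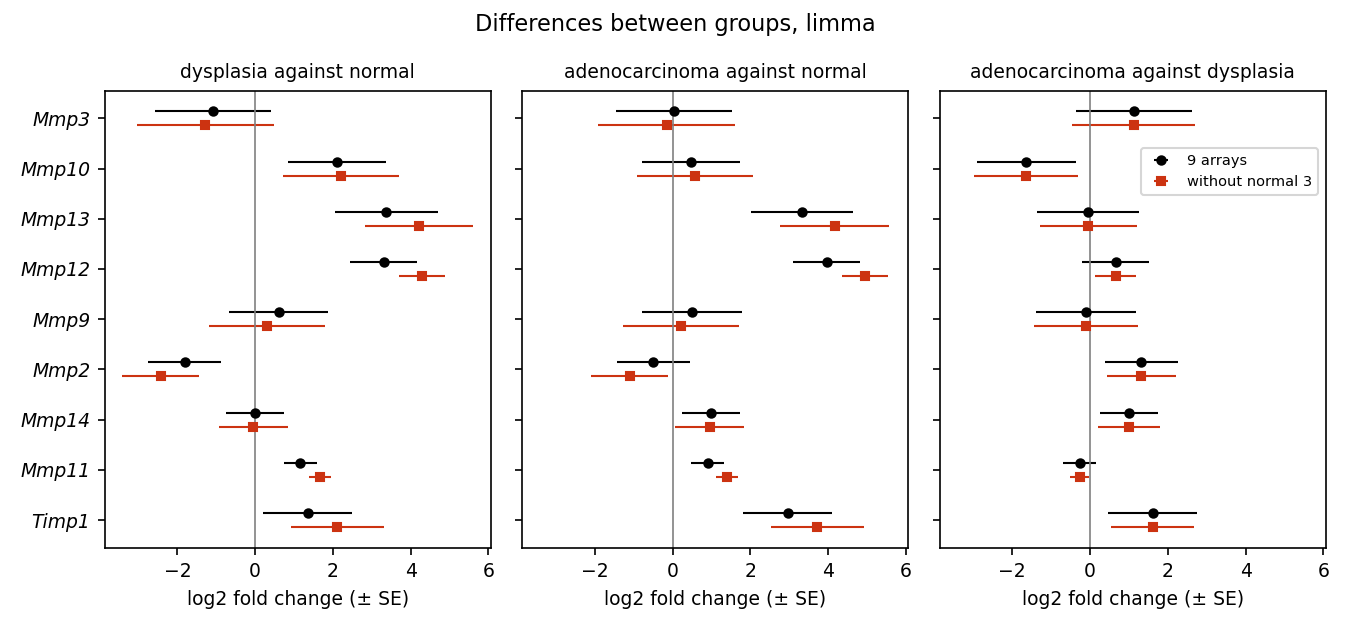
Log2 fold change ± SE (horizontal axis) of the 9 tested genes in the 3 comparisons by limma, on 9 arrays (black circles) and without normal 3 (red squares). In both comparisons with normal Mmp12 lies furthest from 0 relative to its error, and leaving out normal 3 moved Mmp12, Mmp13, Mmp11 and Timp1 further above normal.

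Counted over the set, the dysplasia and normal arrays did not overlap for 2 of 9 genes, Mmp12 and Mmp13, both higher, beside 12.1% of all tested genes higher. For adenocarcinoma it was 4 of 9, Mmp10, Mmp12, Mmp13 and Timp1, beside 10.2% of all genes, and for adenocarcinoma against dysplasia 0 of 9, beside 4.06% higher and 6.67% lower. No gene of the set was lower without overlap, beside 10.3% in dysplasia and 9.63% in adenocarcinoma. Without normal 3, Mmp11 and Mmp12, 2 of 9, rose in dysplasia, beside 12.0% of all genes, and the same pair in adenocarcinoma, beside 7.39%. No gene of the set fell there, beside 11.0% and 7.73% of all genes. With dysplasia 3 left out too, 3 of 9 rose and 1 fell in dysplasia, beside 13.8% and 11.2%. In adenocarcinoma 4 of 9 rose, beside 9.54%, while 8.72% of all genes fell. That step changed no adenocarcinoma difference from normal, only the estimate of the spread that the groups share. The median log2 difference over the 9 genes was 1.16 in dysplasia and 0.90 in adenocarcinoma, against 0.04 and 0.01 over all genes. Leaving out arrays moved it: the dysplasia median was 0.19 without dysplasia 3 and 0.46 without normal 3 and dysplasia 3, and the adenocarcinoma median was 0.39 without adenocarcinoma 3. Both comparisons use the same normal arrays, so their counts are not independent.

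The genes of the set varied widely across arrays within and between groups. The highest array was dysplasia 3 for Mmp3, Mmp9, Mmp10 and Mmp13 and adenocarcinoma 3 for the other 5, while these arrays were the highest for 11.8% and 14.2% of all tested genes. The range over the 9 arrays was at least 16-fold for 7 of 9 genes and for 546 of 13245 genes, 4.12%. Mmp13 had the widest, 174-fold, and Mmp14 and Mmp11 were under 16-fold. Of the 9, Mmp9, Mmp10 and Mmp13 were on dysplasia 3 at least 2-fold above every other array, beside 0.989% of all genes. The 16-fold and 2-fold limits were chosen after the values were seen, and no test was made of these counts.

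**Figure D4:**
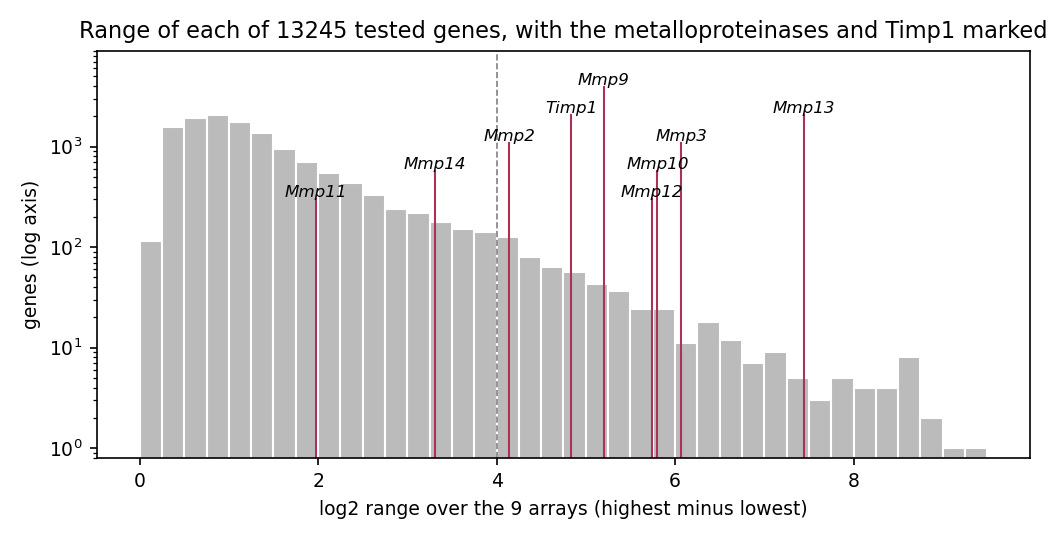
Number of genes (vertical log axis) by the range of their log2 intensity over the 9 arrays (horizontal axis) for all 13245 tested genes, with the 9 genes marked by vertical lines whose heights have no meaning. The dashed line stands at 4, a 16-fold range, which 7 of the 9 exceed.

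Correlations over the 9 arrays, which share the group differences and are given as a description, set Mmp3, Mmp9 and Mmp14 together, at 0.766 to 0.836. Mmp9 and Mmp10 correlated at 0.859, and both were highest on dysplasia 3. Mmp12 correlated at 0.849 with Mmp11, 0.861 with Mmp13 and 0.817 with Timp1, but at 0.02 with Mmp3, which also lies in the cluster. Mmp2 ran against Mmp11, at -0.562. Timp1 correlated most with Mmp13, at 0.875.

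Among all genes, the 5 whose values were most like those of Mmp12 over the 9 arrays were Ccdc112, at 0.990, Oxsr1, Rap2c, Inppl1 and Lsm10, the last at 0.976. For Mmp13 they were Txndc5, at 0.988, Clic1, Myo9b, Sh3rf1 and Cdk3, and for Timp1 Lilr4b, at 0.978, Gpr176, Pira2, Gng11 and Cd63. Txndc5, a protein disulfide isomerase of the endoplasmic reticulum, read 10.17 on normal 1 and 12.68 on dysplasia 3. Cd63, a tetraspanin to which TIMP1 is known to bind, read 12.95, 13.01 and 13.25 in normal gland, 12.92, 13.28 and 13.70 in dysplasia and 13.45, 13.40 and 13.77 in adenocarcinoma. The range of Cd63 was far smaller than that of Timp1.

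Of 14 other metalloproteinases listed, 12 had a probe and 7 were tested. Their ranges over the 9 arrays ran from 0.28 to 2.98 on the log2 scale, against 1.97 to 7.44 in the set. None passed the test on 9 arrays. Without normal 3, Mmp28, or epilysin, rose in dysplasia by 0.83 ± 0.24 (SE) and Mmp24, a membrane-anchored form, fell by 1.19 ± 0.29, with limma adjusted p-values of 0.044 and 0.027. These are 1 of 7 each way, beside 12.0% and 11.0% of all genes, and for Mmp28 only 1 of the 2 remaining normal arrays was above background. In adenocarcinoma none of the 7 passed. Mmp1a, which lies in the chromosome 9 cluster and has the AP-1 letters too, was also highest on dysplasia 3, at 8.50. It read 7.71, 7.67 and 7.18 in normal gland and 6.75, 6.97 and 6.97 in adenocarcinoma, so adenocarcinoma lay below normal. Such a lack of overlap held for 1 of the 7 each way in adenocarcinoma, beside 10.2% of all genes higher and 9.63% lower.

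The other inhibitors of metalloproteinases differed among themselves. Timp3, which is bound to the matrix, read 12.27, 12.65 and 13.54 in normal gland, 8.01, 11.21 and 10.60 in dysplasia and 11.76, 12.77 and 13.34 in adenocarcinoma. All dysplasia arrays lay below all the others. Such a lack of overlap held for 2 of the 4 tested inhibitors, lower in dysplasia than in normal gland, beside 10.3% of all genes. It held for 1 of the 4, higher in adenocarcinoma than in dysplasia, beside 4.06%. The Timp3 difference of -2.88 ± 0.82 (SE) between dysplasia and normal had a limma adjusted p of 0.160. Without normal 3, of the 4 tested inhibitors 1 rose in dysplasia and 2 fell, beside 12.0% and 11.0% of all genes: Timp2, which also takes part in the activation of Mmp2, rose by 1.28 ± 0.34, while Reck, a membrane-anchored inhibitor, fell by 1.32 ± 0.24 and Timp4 at least 2.15-fold, since no dysplasia array was above background for Timp4. For Reck 2 of 3 were. Their adjusted p-values were 0.036, 0.010 and 0.013. In adenocarcinoma 2 of the 4 fell, beside 7.73% of all genes: Reck by 0.96 ± 0.24 and Timp4, above background on 1 of 3 arrays, by 0.99 ± 0.26, with adjusted p-values of 0.037 and 0.043.

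Plasminogen activators lead to plasmin, which activates metalloproteinase proenzymes. None of the 4 tested genes of that system passed in any comparison, with or without normal 3. Plau, or urokinase, read 8.54, 8.68 and 9.49 in normal gland, 8.06, 8.31 and 12.46 in dysplasia and 9.54, 9.62 and 11.43 in adenocarcinoma. Its receptor Plaur was likewise highest on dysplasia 3, at 9.46, and at 8.02 or less on the others. Both lay above all normal arrays in adenocarcinoma, 2 of the 4, beside 10.2% of all genes.

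Of the 11 tested ADAM and ADAMTS genes, 2 rose and 2 fell in dysplasia without normal 3, beside 12.0% and 11.0% of all genes. Adam17, the sheddase of TNF, rose by 1.58 ± 0.26 (SE), with a limma adjusted p of 0.0076, and Adam10, the sheddase of Notch and E-cadherin, at least 2.05-fold, with an adjusted p of 0.017, since neither remaining normal array was above background for Adam10. Adamts9 fell by 1.87 ± 0.37 and Adam15 by 0.89 ± 0.19. Their adjusted p-values were 0.014 and 0.017. In adenocarcinoma Adam17 rose by 1.09 ± 0.26, while Adamts9 fell by 1.86 ± 0.37 and Adam15 by 0.69 ± 0.19, with adjusted p-values of 0.034, 0.019 and 0.049. None of the 11 passed on 9 arrays.

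Among 11 tested factors known to act at metalloproteinase promoters, 3 rose in dysplasia and 2 in adenocarcinoma without normal 3, beside 12.0% and 7.39% of all genes, and none passed on 9 arrays. Fos, a subunit of AP-1, read 8.03, 7.65 and 9.22 in normal gland, 9.74, 9.02 and 10.77 in dysplasia and 10.07, 10.06 and 10.26 in adenocarcinoma. Without normal 3 it rose by 2.00 ± 0.46 (SE) in dysplasia and 2.29 ± 0.46 in adenocarcinoma, with limma adjusted p-values of 0.022 and 0.019. No other AP-1 subunit passed. Junb read 8.91, 8.87 and 11.30 in normal gland, 9.96, 9.75 and 12.25 in dysplasia and 10.81, 10.56 and 9.71 in adenocarcinoma. Its mean was 10.65 in dysplasia against 9.69 in normal gland. Normal 3 made the groups overlap, and all dysplasia and adenocarcinoma arrays lay above normal 1 and normal 2, as for Fos. Lower means in dysplasia were found for Jun, 8.16 against 9.18, Fosl2, 8.52 against 9.39, Jund, 8.15 against 8.45, and Fosb, 6.49 against 6.56. On 9 arrays 5 of the 11 factors had a dysplasia difference above 0, with a median of -0.07. The ETS factor Etv4 was at 6.33 and 6.01 on normal 1 and normal 2, at 10.20 on normal 3, at 9.91 to 10.94 in dysplasia and at 8.06 to 9.86 in adenocarcinoma. It rose when normal 3 was left out, by 4.09 ± 0.56 and 2.63 ± 0.56, with adjusted p-values of 0.0042 and 0.023, although only 1 of the 2 remaining normal arrays was above background. Its relative Etv5 rose in dysplasia by 2.68 ± 0.56, with an adjusted p of 0.016.

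None of 6 tested cytokines that induce metalloproteinases passed in any comparison. Il1b was between 6.25 and 7.24 on the normal arrays, at 6.29, 6.90 and 10.17 in dysplasia and at 9.68, 8.15 and 8.54 in adenocarcinoma. It was higher on each adenocarcinoma array than on any normal array, with a difference of 2.09 ± 0.94 (SE) and a limma adjusted p of 0.332. Such a lack of overlap held for 2 of the 6 cytokines, beside 10.2% of all genes.

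Among lysosomal proteases, none of 6 passed on 9 arrays. Without normal 3, Ctsb, or cathepsin B, rose in adenocarcinoma by 0.78 ± 0.19 (SE), with a limma adjusted p of 0.038, and Ctsd, or cathepsin D, fell in dysplasia by 0.51 ± 0.13, with an adjusted p of 0.035, 1 of 6 each beside 7.39% and 11.0% of all genes. Substrates of the metalloproteinases showed no call: 0 of 11 basement membrane genes and 0 of 8 genes of the interstitial matrix passed with 9 arrays or without normal 3. Tnc, or tenascin C, and Fn1, or fibronectin, were on all adenocarcinoma arrays above all normal ones, 2 of 8, beside 10.2% of all genes. Tnc reached 11.46 on adenocarcinoma 3 against 7.90 at most in normal gland, and read 7.39, 8.18 and 9.30 in dysplasia. Fn1 read 7.47, 9.01 and 13.16 in dysplasia and 9.19 to 9.49 in normal gland, so dysplasia 1 and dysplasia 2 lay below all normal arrays. On 9 arrays 4 of the 8 interstitial and 4 of the 11 basement membrane genes had a dysplasia difference above 0.

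**Figure D5:**
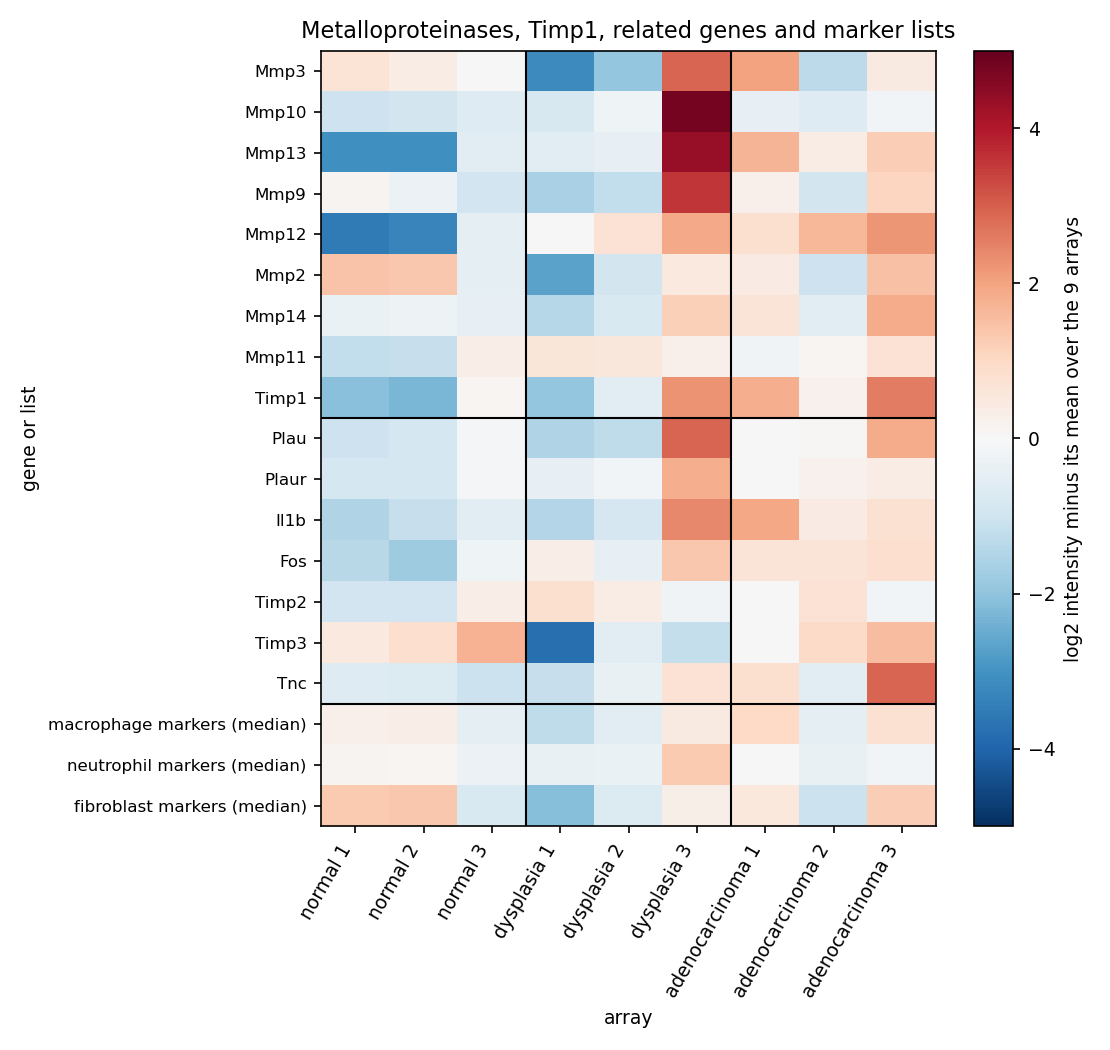
Log2 intensity minus the gene's mean over the 9 arrays (colour scale) for the 9 tested genes, 7 related genes chosen for display after their values were seen, and the medians of 3 marker lists (rows) on each array (columns). Mmp10, Mmp13, Mmp9, Mmp3, Plau and Il1b are reddest on dysplasia 3, and Mmp12 and Mmp13 are bluest on normal 1 and normal 2.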

How the data were processed

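Biotin-labelled total RNA of 9 glands was measured on Illumina BeadChips. The deposited intensity values are linear, and sorted columns differ by at most 0.0992%, as after quantile normalization by the authors; limma is named in the submitters' processing notes, without a version. Intensities ran from 42.4, with a median of 80.7, and no further normalization was applied. Another 18 columns of a non-normalized table matched no sample label and were not used.

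Of 45281 probes, 34885 had 1 gene symbol, 18 several and 10378 none; 34807 matched the GRCm38.p6 gene table by gene identifier. Background was set at an intensity of 78.1, from the spread of values below the mode. Genes above it on at least 3 arrays were tested, each by its brightest probe, on log2 values with limma 3.58.1 in R 4.3.3: group means over 9 arrays, 6 residual degrees of freedom, Benjamini-Hochberg adjustment, threshold 0.05. The code was tested on simulated data. Precision is limited by the 3 arrays a group and by how far arrays of a group differ. A gene above background on no array of its lower group is given as a bound against the background level.

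All 10 genes are named. By rule, up to 4 genes past the threshold were named from each related list, and the 5 genes most correlated with Mmp12, Mmp13 and Timp1. Where no gene of a list passed, the rule gave the 2 with the smallest p, and only some of those are named. Timp3, Plau, Plaur, Il1b, Tnc and Fn1 were chosen among them after values were seen. So were Mmp1a on dysplasia 3, the AP-1 subunits other than Fos, single marker genes and the promoters printed. The genes and lists were chosen with earlier results of these data known. Listed genes without a probe of their own were not analysed here. The labels do not say whether equal replicate numbers pair samples, and no pairing was assumed. Correlations of deviations from the group means ran from -0.460 to 0.238 for equal numbers and from -0.488 to 0.509 for unlike ones. With so few arrays a group they cannot settle it. RefSeq promoter windows were searched for the letters named.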

Additional observations from a re-analysis of the deposited data

How the results depend on the processing

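Calls rested on normal 3. On 9 arrays 0 genes were called in each comparison. Weighting arrays by how closely they followed their group means gave 7749 for dysplasia and 4412 for adenocarcinoma against normal. These weights come from the same values, so they are no separate measure of array quality. Leaving out normal 3 and dysplasia 3 together, chosen after seeing the data, gave 3316 and 2418. Adding 16 before log2 gave 1 in dysplasia, no filter gave 1 and 6, and cyclic loess 1 and 1. Leaving out single arrays gave 0 to 3038, 0 to 2003 and, between adenocarcinoma and dysplasia, 0 to 1. The replicate block, with numbers not known to pair samples, gave 0 calls in each comparison and changed no call. The array weights ran from 0.177 for normal 3 to 6.02 for dysplasia 2. With them Mmp11, Mmp12, Mmp13 and Timp1 were called higher and Mmp2 and Mmp3 lower in dysplasia. These calls stood among 4128 genes called higher and 3621 called lower of 13245 tested, so they do not set these genes apart.

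Of 513 values of single genes under alternatives, 464 kept direction and call, 22 passed the threshold in the same direction and 27 changed sign; none of the 27 was a called value. Array weights turned Mmp9 to -0.82 in dysplasia, and between adenocarcinoma and dysplasia Mmp13 to 1.44 and Mmp9 to 1.08. Cyclic loess turned the last pair to 0.026 and 0.0019, subtracting 40 turned Mmp9 to 0.155, and averaging probes turned Mmp3 in adenocarcinoma to -0.063 and lowered Mmp13 to 1.60 in dysplasia and 1.41 in adenocarcinoma. Without normal 3 and dysplasia 3, Mmp9 was -1.36 in dysplasia, Mmp3 -0.155 in adenocarcinoma, and between adenocarcinoma and dysplasia Mmp10 was 0.122, Mmp13 1.56 and Mmp9 1.57. Leaving out single arrays gave, in dysplasia, -0.78 to 0.54 for Mmp14, -2.91 to 0.12 for Mmp3 and -1.06 to 1.54 for Mmp9. In adenocarcinoma it gave -1.10 to 0.16 for Mmp2 and -0.79 to 0.88 for Mmp3. Between adenocarcinoma and dysplasia it gave -2.66 to 0.12 for Mmp10, -0.88 to 1.56 for Mmp13, -0.0921 to 2.94 for Mmp3 and -1.03 to 1.57 for Mmp9. The cause was not tested. Genes near background, Mmp7, Mmp10 and Mmp11 among them, have compressed differences.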
